A study of Mus musculus with 4 samples.

Results

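The respiratory chain subunits were taken as the genes whose symbol begins with Ndufa, Ndufb, Ndufc, Ndufs, Ndufv, Sdh, Uqcr or Atp5, or runs from Cox4 to Cox8 with letters, without assembly factors. The rule used symbols alone and found 84 genes among the 22911 named genes on the array. Of 88 protein-coding genes that fit it, 4 had no probe here. Symbols follow the RefSeq table, which keeps older names such as Atp5a1, Atp5b and Atp5g1. The study compared periodontal ligament (PDL), the connective tissue that holds a tooth in its socket, between wild-type (WT) mice and mice labelled Mkx-KO, at ages of 10 and 4 weeks. Mkx encodes the Mohawk homeobox protein, a transcription factor of tendons and ligaments. Both genotypes were sampled at both ages, and total RNA of each of the 4 resulting groups was measured on 1 one-colour microarray. The labels name no strain, no knockout allele and no other treatment, and they do not say how many mice a sample held or whether RNA was pooled.

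The respiratory chain passes electrons from NADH and succinate to oxygen through complexes I to IV in the inner mitochondrial membrane and pumps protons as it does so. Complex V, the ATP synthase, uses the returning protons to make ATP. Complex IV, cytochrome c oxidase, is unusual in that several of its small subunits exist as a widely expressed form and a second form found in heart and skeletal muscle, in lung or in testis.

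Levels are given as log2 signal relative to the 75th percentile of all probes on the same array, so that a level of 0 lies at that percentile. A gene was compared where its probe was well above background on both arrays, and called where the arrays differed by at least 2-fold. With 1 array a group there was no replicate spread. The only error available for a single difference was the scanner software's own, called the technical error here, which had a median of 0.20 on the log2 scale and covers neither mice nor dissection. On the ligament tissue itself, all 8 ligament fibroblast markers, among them Postn, Col1a1, Scx and Tnmd, were well above background on every array. The signal of Mkx was 553 (WT) and 108 (Mkx-KO) at an age of 10 weeks, then 563 and 193 at 4 weeks. It was lower in both arrays labelled Mkx-KO, by a difference of -2.10 at 10 weeks and -1.65 at 4 weeks, and where its probe lies relative to the deleted part was not examined. The shares of spots well above background were 66.6% and 65.3% at 10 weeks and 62.3% and 61.8% at 4 weeks, WT first. All 4 arrays shared 1 slide, so position on it and group cannot be told apart. The arrays also differed in markers of neighbouring tissues. Signals, single or summed, are given here and below without scaling between arrays. The Mkx-KO array at 4 weeks had a summed signal of 289 over 6 olfactory neuron markers, against 10877 to 15643 on the other arrays. Epithelial keratin markers had a summed signal of 86047 (WT) and 165616 (Mkx-KO) at an age of 4 weeks, then 256498 and 116182 at 10 weeks.

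Of the 84 genes, 82 were well above background on all 4 arrays. Both exceptions were testis-type isoforms of complex IV. Cox7b2 was well above background only in Mkx-KO at 10 weeks, with a level of -4.08. That was 1.5-fold over the WT array of that age and 1.51-fold over a limit for the younger Mkx-KO array. These folds set the bright array against the lowest signal well above background on the dim array, or the dim probe's own where that was higher. The WT fold used the dim probe's own signal, and its log2 difference of 0.59 had a technical error of 0.44. Under normexp the log2 differences were 0.27 from WT and 0.44 from the younger Mkx-KO array, so the folds are no firm lower bounds. Cox8c was well above background on no array.

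Most members differed by less than 2-fold in every comparison, and a few subunits of complex IV by more. The heat map of levels, each centred on the gene's own mean, shows a faint common difference between the 4-week and 10-week arrays in nearly every gene. It shows a much stronger pattern in Cox6a2, Cox7a1, Cox8b and Cox6b2.

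**Figure D1:**
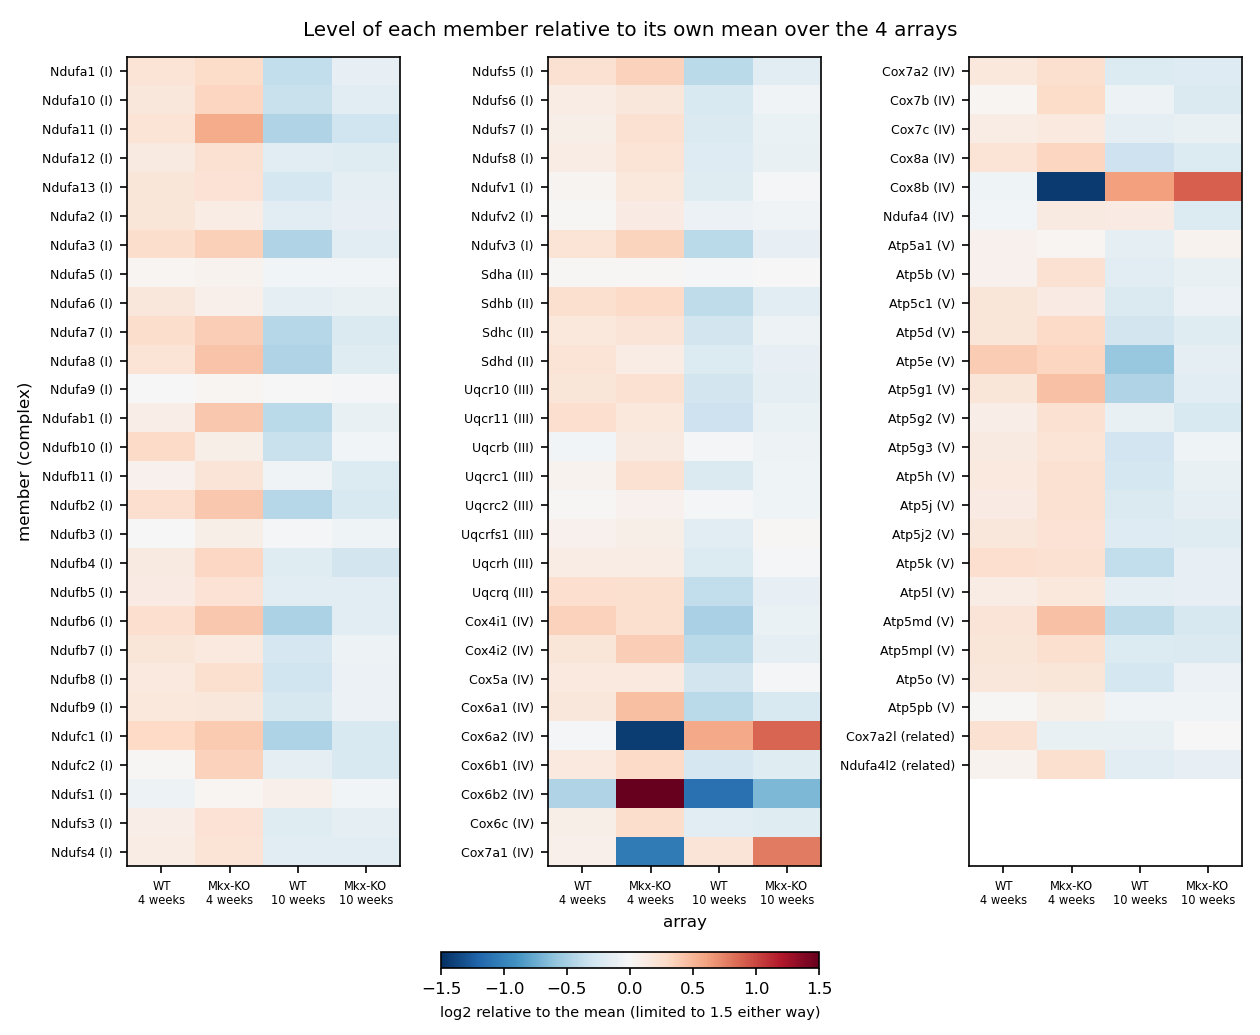
Heat map of the respiratory chain members well above background on all arrays, with 1 not shown (rows, with their complex in brackets), on 4 arrays (columns), coloured by log2 level relative to the gene's mean over the 4 arrays and limited to 1.5 either way. Cox6a2, Cox7a1 and Cox8b are lowest and Cox6b2 is highest on the Mkx-KO array at 4 weeks.

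Among the members, the largest differences between genotypes lay at 4 weeks and in the isoforms of complex IV. There, 1 member exceeded WT by at least 2-fold in Mkx-KO, against 0.472% of the 15686 genes compared, and 3 were at least 2-fold lower, against 3.31% of them. The first was Cox6b2, and the others were Cox6a2, Cox7a1 and Cox8b. Out of 82 members, the count of 3 is near the share of all genes that were as much lower. Of the 82 members, 66 had a difference above 0, where 58.8% of all genes did. The median of the members was 0.09 and that of all genes 0.06. With quantile scaling 51 lay above 0 with a median of 0.024, beside 0.029 for all genes, and with cyclic loess, an alternative added after seeing the data, 46 did with a median of 0.013. Among genes in the top quartile by brightness, the members' median was 0.076 and that of all genes 0.103. The other 78 members differed by less than 1.5-fold.

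Cox6a2 encodes the heart and skeletal muscle form of subunit 6A. Its levels were 2.91 (WT) and 1.51 (Mkx-KO) at an age of 4 weeks, then 3.51 and 3.81 at 10 weeks. The Mkx-KO array at 4 weeks was the lowest of the 4, and the difference between genotypes was -1.40 there, with a technical error of 0.20, and 0.31 at 10 weeks. Cox8b, the muscle form of subunit 8, had levels of 2.68 (WT) and 1.31 (Mkx-KO) at an age of 4 weeks, then 3.36 and 3.64 at 10 weeks. It had the same order of arrays, with genotype differences of -1.37 at 4 weeks and 0.28 at 10 weeks. Cox7a1, the muscle form of subunit 7A, had levels of 3.08 (WT) and 1.94 (Mkx-KO) at an age of 4 weeks, then 3.19 and 3.78 at 10 weeks. The differences of Cox7a1 were -1.14 and 0.59, again lower at 4 weeks and higher at 10 weeks. Expressed as folds, the 4-week signals in Mkx-KO were 2.64-fold lower for Cox6a2, 2.58-fold lower for Cox8b and 2.21-fold lower for Cox7a1. Among the 15686 genes compared, Cox6a2, Cox8b and Cox7a1 ranked 298, 312 and 435 from the lowest.

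The widely expressed partners did not share this pattern. Cox6a1 differed between genotypes by 0.28 at 4 weeks and 0.18 at 10 weeks. Cox8a differed by 0.12 and 0.11, and Cox7a2 by 0.07 and 0.02. Of these only the 4-week value of Cox6a1 exceeded its technical error of 0.20, and the 10-week value of Cox7a2 changed sign under cyclic loess and under normexp.

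**Figure D2:**
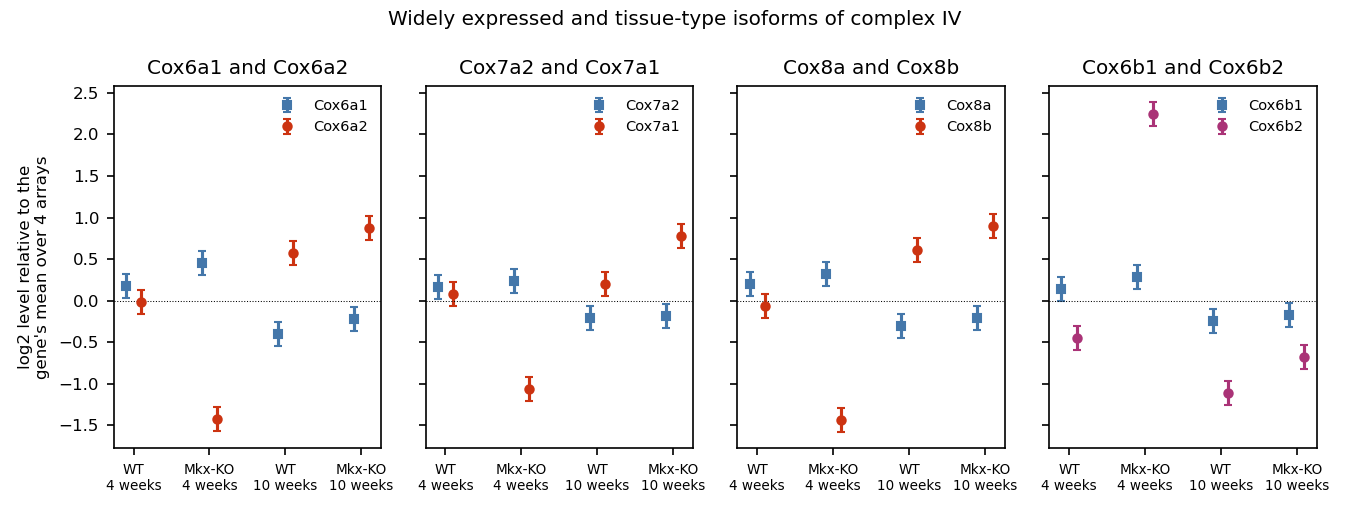
Log2 level of 4 pairs of complex IV isoforms on the 4 arrays, each relative to the gene's own mean over the arrays, with the widely expressed form as squares and the tissue-type form as circles. Bars are the technical error of a single array. Circles of Cox6a2, Cox7a1 and Cox8b dip and that of Cox6b2 peaks in Mkx-KO at 4 weeks, while the squares of the widely expressed forms stay within 0.5 of 0.

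The median of the skeletal muscle markers had the sign of the muscle-type isoforms in each comparison, though not every marker did. All 14 markers were well above background on every array, and 12 of 14 were at least 2-fold lower in Mkx-KO than in WT at 4 weeks, with a median difference of -1.26. Tcap, a sarcomere protein of the Z-disc, differed by -1.95, and Myh4, a fast myosin heavy chain, by -1.20. At 10 weeks the median of the 14 was 0.35 and none was called. The summed signal of the list was 24260 (WT) and 10329 (Mkx-KO) at an age of 4 weeks, then 37713 and 39492 at 10 weeks. Of 6 slow or oxidative muscle markers, Myl3 alone was called at 4 weeks, with -1.5, and the median of the list was -0.11 then and 0.24 at 10 weeks. The part of muscle RNA in the differences of Cox6a2, Cox7a1 and Cox8b was not tested, and in such bulk RNA fewer cells of a type and less RNA per cell cannot be told apart.

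**Figure D3:**
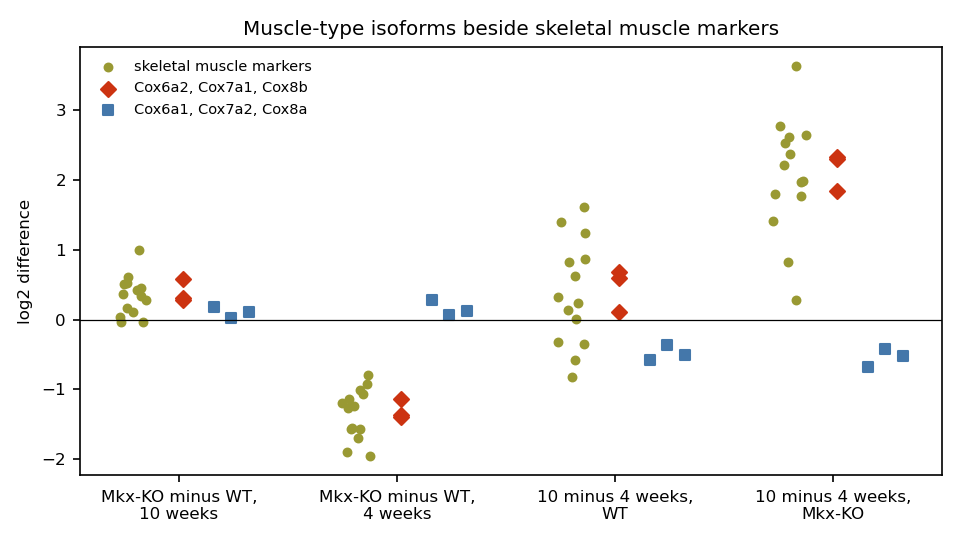
Log2 differences in the 4 comparisons for 14 skeletal muscle markers (circles), the muscle-type isoforms (diamonds) and their widely expressed partners (squares). The diamonds lie within the range of the circles in each comparison, at -1.14 to -1.40 in the 4-week genotype comparison.

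Cox6b2, which encodes the testis form of subunit 6B, went the opposite way. Its signal was 287 (WT) and 1992 (Mkx-KO) at an age of 4 weeks, then 209 and 239 at 10 weeks. The Mkx-KO array at 4 weeks stood far above the other 3, with a difference between genotypes of 2.69 at 4 weeks, or 6.46-fold, and of 0.44 at 10 weeks. It was the 2nd highest difference of all 15686 genes at 4 weeks. Its partner Cox6b1 differed by 0.14 at 4 weeks and 0.07 at 10 weeks.

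The few sperm cell markers above background showed no such peak, and the others could hardly show one. Between 2 and 4 of 10 such markers were well above background on each array, and their summed signal was 103 in Mkx-KO at 4 weeks against 108 to 121 on the other arrays. Ddx4, Prm1, Acrv1, Pgk2, Odf1 and Spata19 were well above background on no array. Of those that were on every array, Prm2 differed between genotypes by 0.04 and Tnp1 by -0.14 at 4 weeks. The chromosomal neighbours Kmt5c and Il11, the nearest on either side that were above background, differed by 0.20 and 0.38 at 4 weeks. These neighbours were looked up after the value of Cox6b2 was seen. A single probe, printed once, measured Cox6b2, and the same holds for Cox6a2, Cox7a1 and Cox8b. Spots around those 4 spots, within 10 rows and columns, had median deviations between -0.09 and 0.07 on every array.

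Promoters of isoform partners are shown because partners behaved so differently. RefSeq windows of GRCm38.p6 ran from 250 bases before to 50 bases after the start of a gene. They were at hand for 68 of the 84 members, and for both partners in the pairs shown. Cox6a2 and Cox7a1 had no window, so of the muscle-type isoforms only Cox8b was searched. Capitals mark matches to the ETS core CCGGAAG, which reads CTTCCGG on the other strand, and to the E-box CAGCTG. The windows are Cox8a at chr19:7217567-7217866, Cox8b at chr7:140900397-140900696, Cox6b1 at chr7:30626065-30626364 and Cox6b2 at chr7:4753045-4753344, all on the minus strand and printed in the direction of the gene.
Cox8a: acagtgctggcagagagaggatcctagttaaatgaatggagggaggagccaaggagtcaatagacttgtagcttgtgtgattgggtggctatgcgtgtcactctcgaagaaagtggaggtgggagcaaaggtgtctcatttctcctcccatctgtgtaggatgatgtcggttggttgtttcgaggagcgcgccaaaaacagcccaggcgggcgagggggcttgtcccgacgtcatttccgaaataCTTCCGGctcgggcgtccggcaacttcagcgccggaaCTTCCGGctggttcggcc
Cox8b: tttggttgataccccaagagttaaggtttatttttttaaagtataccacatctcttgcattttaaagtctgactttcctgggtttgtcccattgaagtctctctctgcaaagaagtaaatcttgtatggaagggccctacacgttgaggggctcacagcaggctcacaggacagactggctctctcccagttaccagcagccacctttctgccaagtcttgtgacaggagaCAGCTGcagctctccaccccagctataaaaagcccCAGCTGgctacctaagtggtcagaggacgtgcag
Cox6b1: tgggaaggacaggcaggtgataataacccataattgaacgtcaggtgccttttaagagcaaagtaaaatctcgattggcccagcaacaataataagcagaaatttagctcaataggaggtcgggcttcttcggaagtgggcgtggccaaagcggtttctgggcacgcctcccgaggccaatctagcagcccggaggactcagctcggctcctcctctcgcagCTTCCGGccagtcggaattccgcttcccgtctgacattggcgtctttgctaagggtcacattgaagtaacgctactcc
Cox6b2: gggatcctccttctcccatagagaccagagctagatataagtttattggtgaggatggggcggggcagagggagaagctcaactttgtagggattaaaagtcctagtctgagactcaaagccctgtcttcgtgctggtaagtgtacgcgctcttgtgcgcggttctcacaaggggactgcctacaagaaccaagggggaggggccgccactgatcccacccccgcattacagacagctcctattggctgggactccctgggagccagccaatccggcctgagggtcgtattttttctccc
The widely expressed Cox8a held 2 ETS cores and its muscle-type partner Cox8b held 2 E-boxes, while Cox6b1 held 1 ETS core and Cox6b2 none of the motifs searched. Over the 68 members, the ETS core was in 17 windows, or 25%, against 9.93% of 27025 genes with a promoter. The NRF1 motif GCGCATGC was in 10, or 14.7%, against 3.05%, and the ERR core AAGGTCA in 8, or 11.8%, against 5.38%. E-boxes were in 6 members, or 8.82%, against 18.3% of all genes. The MEF2 site was in 0 of the 68 members, which hold neither Cox6a2 nor Cox7a1, and in 3.70% of all genes. Both strands were searched, and a match is a description of letters, not a site of binding.

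At 10 weeks no member differed by 2-fold between the genotypes. Among all 16457 genes compared, 1.04% exceeded WT by at least 2-fold in Mkx-KO and 1.37% lay at least 2-fold under it. Of the 82 members 65 lay above 0, where 51.5% of all genes did, and the median of the members was 0.15 against 0.01 for all genes. Among genes in the top quartile by brightness, the members' median was 0.14 and that of all genes 0.02. Taken singly, 27 members lay beyond 1 technical error of a difference and 3 beyond 2, namely Cox7a1 at 0.59, Cox6b2 at 0.44 and Atp5e at 0.44. Such counts were not made over all genes, so they do not set the members apart. The lowest was Ndufa4, a subunit of complex IV despite its name, at -0.32. Under cyclic loess normalization 58 members lay above 0 with a median of 0.09. Osteoclast markers were higher in Mkx-KO at this age as well, all 6 above 0 with a median of 1.05 and 4 called, and their part in the members' difference was not tested.

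**Figure D4:**
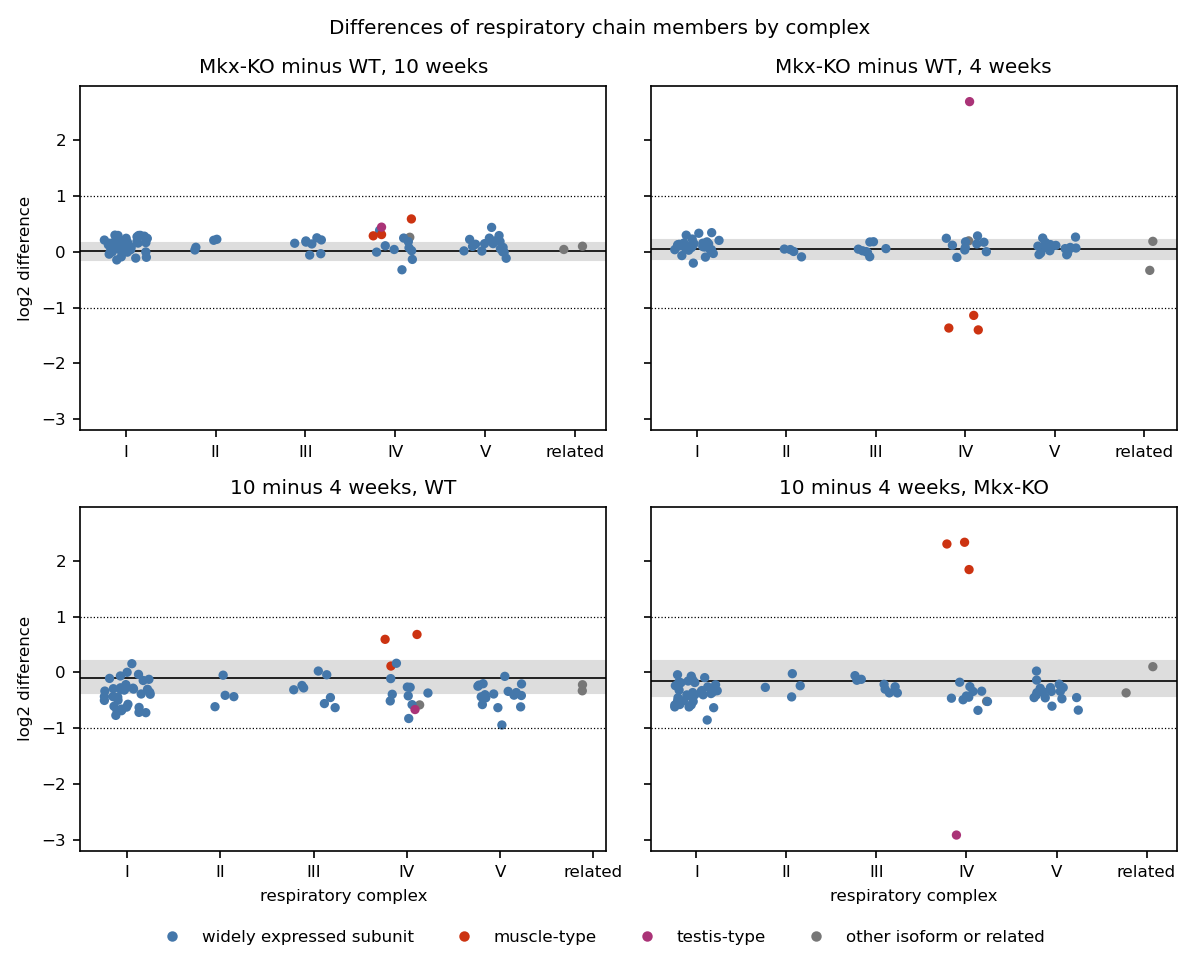
Log2 difference of each member by respiratory complex in the 4 comparisons, coloured by kind of isoform. The line and grey band are the median and middle quartiles of all genes compared, and dotted lines mark 2-fold. Only complex IV isoforms pass the dotted lines, while most members lie below the line in both age comparisons.

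With age the members lay lower at 10 than at 4 weeks in both genotypes, mostly by less than 2-fold. The comparison in WT and that in Mkx-KO use different arrays, but each shares its arrays with the genotype comparisons above. In WT, 0 of 82 members were called in either direction, against 5.01% of 16102 genes at least 2-fold higher at 10 weeks and 3.83% at least 2-fold lower. Of the members, 75 lay below 0, where 59.5% of all genes did, with a median of -0.38 against -0.10 for all genes. In the top quartile by brightness, which held 76 members, 71.6% of all genes and 69 members lay below 0. In Mkx-KO, 3 members were called higher at 10 weeks, against 6.25% of 15669 genes, and 1 was called lower, against 3.84%. Of the members, 77 lay below 0, where 62.3% of all genes did, with a median of -0.35 against -0.15. In the top quartile by brightness, 77.4% of all genes and 71 of 76 members did in Mkx-KO. These directions are those of the 75th percentile scaling: under cyclic loess 18 members changed sign in WT and 30 in Mkx-KO, and under quantile scaling 14 and 20. Osteoclast markers lay lower with age too, all 6 below 0 in WT with a median of -1.44 and 5 called, and 5 of 6 in Mkx-KO with a median of -0.35. Their summed signal was 280356 (WT) and 305142 (Mkx-KO) in the younger mice and 139190 and 220391 in the older. Of 6 erythroid markers 4 lay below 0 in WT, with a median of -0.26, and 2 in Mkx-KO, with a median of 0.36. Epithelial keratin markers lay above 0 in WT, all 6 with a median of 1.25. In Mkx-KO all 6 lay below 0, with a median of -0.71. The part of these cell types in the members' difference was not tested.

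The members called in Mkx-KO were the same isoforms of complex IV. Cox8b was higher at 10 weeks by 2.33, Cox6a2 by 2.30 and Cox7a1 by 1.84, and Cox6b2 was lower by 2.92 on the log2 scale. In WT the differences were 0.68 for Cox8b, 0.59 for Cox6a2, 0.11 for Cox7a1 and -0.67 for Cox6b2. The median of the 14 skeletal muscle markers was 2.10 in Mkx-KO, where 12 were called higher, and 0.28 in WT, where 3 were and 4 of the 14 lay below 0, Actn3 lowest at -0.82. The 6 slow or oxidative muscle markers had a median of 0.34 in Mkx-KO and of -0.29 in WT, where 5 of them lay below 0 and the muscle-type isoforms above it.

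In complex I, which takes electrons from NADH, all 36 members were measured and their medians were -0.37 in both WT and Mkx-KO with age. The 7 core subunits, which carry the flavin and iron-sulphur clusters, had medians of -0.28 and -0.32, and the 29 accessory subunits -0.44 and -0.40. Ndufs1, the largest core subunit, had levels of 3.48 (WT) and 3.59 (Mkx-KO) at an age of 4 weeks, then 3.63 and 3.52 at 10 weeks, so it was the highest of complex I in the WT comparison at 0.16. Ndufc1, an accessory subunit, was the lowest in WT at -0.77, and Ndufa11 was the lowest in Mkx-KO at -0.85. Other core subunits were Ndufv1, which binds NADH, at -0.22 in WT and -0.17 in Mkx-KO, both above 0 under cyclic loess, and Ndufs7 at -0.31 and -0.33. Under cyclic loess 7 of the 36 members changed sign in WT and 13 in Mkx-KO, Ndufs1 among the latter.

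Complex II, succinate dehydrogenase, had medians of -0.42 in WT and -0.25 in Mkx-KO over its 4 subunits. The flavin-bearing Sdha had the smallest differences, at -0.05 and -0.02, and turned positive under cyclic loess, quantile and normexp, while the iron-sulphur subunit Sdhb had -0.62 and -0.44. Complex III, which hands electrons to cytochrome c, had medians of -0.30 and -0.24 over 8 members. Its Rieske iron-sulphur protein Uqcrfs1 had -0.24 and -0.06, the second above 0 under cyclic loess and quantile scaling, and the core protein Uqcrc1 -0.28 and -0.30. The small subunit Uqcrq was lowest in both genotypes, at -0.63 and -0.37. Under cyclic loess 2 of the 8 members of complex III changed sign in WT and 5 in Mkx-KO.

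In complex IV the 10 widely expressed subunits had medians of -0.38 in WT and -0.43 in Mkx-KO. Cox4i1, the common form of subunit 4, had levels of 6.91 (WT) and 6.81 (Mkx-KO) at an age of 4 weeks, then 6.08 and 6.47 at 10 weeks. It was lower at 10 weeks in both genotypes, with -0.83 in WT and -0.34 in Mkx-KO, though the second changed sign under cyclic loess. Cox4i2, the lung form, had -0.58 and -0.52, and Cox5a -0.42 and -0.18, the second above 0 under cyclic loess and quantile scaling. Ndufa4 was the exception in WT, at 0.16, and had -0.34 in Mkx-KO, and its relative Ndufa4l2, which is not a regular subunit, had -0.22 and -0.37.

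In complex V the 17 members had medians of -0.40 and -0.35. Atp5e, a small subunit of the catalytic head, had levels of 7.61 (WT) and 7.56 (Mkx-KO) at an age of 4 weeks, then 6.66 and 7.10 at 10 weeks. It was the lowest of all 82 members in WT at -0.94 and had -0.46 in Mkx-KO. The brightest probes of Atp5a1 and Atp5b, also of the head, lay closer to 0. They had -0.20 and -0.23 in WT and 0.02 and -0.34 in Mkx-KO. Both WT values were above 0 under cyclic loess and quantile scaling, and that of Atp5b in Mkx-KO under cyclic loess. The 0.02 of Atp5a1 fell below 0 under centring and with the mean over probes. The dimmer probe of Atp5a1 had -0.38 in both genotypes. Dimmer probes of Atp5b had -0.31 and -0.53 in WT, and -0.52 and -0.51 in Mkx-KO. The genes of the proton-carrying ring were Atp5g1 at -0.63 and -0.61, Atp5g2 at -0.21 and -0.45, and Atp5g3 at -0.42 and -0.27, where Atp5g2 in WT and Atp5g3 in Mkx-KO changed sign under cyclic loess, and the first under quantile scaling too. The probe of Atp5g2 was printed 10 times on each array, with SDs between 0.07 and 0.10 on the log2 scale.

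Members were among the brightest genes, and their age difference varied with the scaling. Of the 82 members, 76 fell in the top quartile of genes by brightness, where the median of all genes was -0.20 in WT and -0.28 in Mkx-KO, beside -0.36 and -0.34 for those members. Under quantile normalization the members' medians were -0.15 in WT, with 61 below 0, and -0.12 in Mkx-KO, with 57 below 0. Under cyclic loess, which removes trends with brightness, they were -0.077 with 57 below 0, and -0.021 with 47 below 0, beside -0.016 and -0.027 for all genes. Loess moved the median of all genes in Mkx-KO by 0.13, the only such move above 0.1 apart from leaving out the filter on dim probes, at 0.15. In 17 genes with several probes above background, the dimmest probe had the lower age difference in 13 in WT and 16 in Mkx-KO. The probes of Cox7c were more than 0.5 apart, in WT with age at -0.26 and -1.11 and between genotypes at 10 weeks at 0.04 and 0.57.

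**Figure D5:**
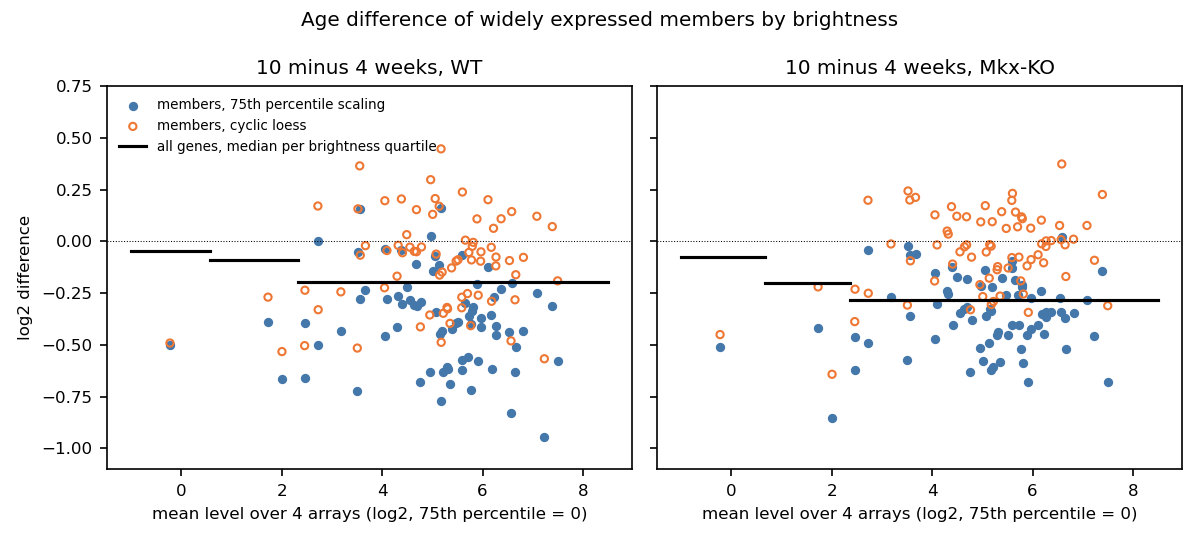
Age difference of widely expressed members (log2, 10 minus 4 weeks) against their mean level over 4 arrays, under 75th percentile scaling (filled) and cyclic loess (open), in WT and Mkx-KO. Black lines are medians of all genes in a brightness quartile, and loess moves most points towards 0.

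A fit with limma over all 4 arrays, with age and genotype as terms and 1 residual degree of freedom, tested 16795 genes. Its error was the change of the genotype difference between the ages, not a spread of replicates. Genes whose genotype difference changed with age had large SEs, so the fit could hardly call them. The genotype effect was -0.55 with an SE of 0.53 for Cox6a2, and 1.57 with 0.68 for Cox6b2. No gene passed an adjusted p of 0.05 for genotype (0% of genes), and none for age (0% of genes). For genotype 455 genes, none of them a member, had an unadjusted p under 0.05. For age 4074 genes, or 24.3%, had one, and so did 22 of 82 members, or 26.8%. That share turned with the setting: 4 members (4.88%, beside 22.6% of genes) had one under cyclic loess, 6 (7.32%, beside 23.4%) under quantile scaling, 37 (45.1%, beside 24.7%) under normexp and 49 (59.8%, beside 29.1%) with a trend of variance on level. The lowest adjusted p of a member in limma's age term was 0.176, shared by Ndufa11, Ndufc1 and Ndufb2, the last being named after its value was seen. Ndufa11 had the largest age effect of these, -0.76 with an SE of 0.14, and was lower at 10 weeks in both genotypes.

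Under 75th percentile scaling, mitochondrial ribosome genes and assembly factors had age differences like those of the members. Values of these lists under cyclic loess, where the members' medians were -0.077 in WT and -0.021 in Mkx-KO, are not given here. The 78 mitochondrial ribosome genes had medians of -0.41 in WT and -0.46 in Mkx-KO, with 74 and 78 below 0 and none called. Of all genes, not matched for brightness, 59.5% lay below 0 in WT and 62.3% in Mkx-KO. Of 48 assembly factors 47 were measured, with medians of -0.30 and -0.37 and none called. Medians were smaller for 17 genes of the TCA cycle, at -0.15 and -0.22, for 22 of glycolysis, at -0.07 and -0.09, and for 14 of fatty acid oxidation, at -0.00 and -0.01. The 11 other subunits and electron carriers, 10 of them measured, had -0.25 and -0.19, and 10 hypoxia response genes 0.01 and -0.09. No transcript of the mitochondrial genome was matched, so those subunits were not analysed here.

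In the lists of carriers, glycolysis, fatty acid oxidation, regulators and hypoxia, single genes were called. Ckmt2, the mitochondrial creatine kinase of muscle, had levels of 0.30 (WT) and -1.12 (Mkx-KO) at an age of 4 weeks, then 2.28 and 2.45 at 10 weeks. Its genotype difference was -1.41 at 4 weeks and its age difference 1.98 in WT and 3.56 in Mkx-KO. Pgam2, the muscle phosphoglycerate mutase, differed between genotypes by -1.02 at 4 weeks and by 0.67 at 10 weeks. Aldoc had the lowest genotype difference of the glycolysis list at 4 weeks, at -1.32. With age in WT, Aldoc was the lowest of that list at -1.22 and Hk2 the highest at 1.05. Among 20 regulators of mitochondrial genes, Ppargc1a, a coactivator of respiratory genes, was the only one called. Its levels were -1.38 (WT) and -3.35 (Mkx-KO) at an age of 4 weeks, then -1.22 and -0.86 at 10 weeks, with a genotype difference of -1.97 at 4 weeks. It also stands on the brown adipocyte list of 5 genes, whose Ucp1 was well above background on no array. With age, 3 of that list were measured. Their median was 0.63 in WT, where all 3 lay above 0 and 1 was called. In Mkx-KO it was 1.07, with 2 called higher and 1 below 0. Between genotypes at 4 weeks the median of 3 was -0.14, with 2 below 0 and 1 above. Of 5 adipocyte markers 4 were measured, with medians of -0.67 between genotypes at 4 weeks and 1.47 with age in Mkx-KO, where 3 were called. Adipoq, an adipocyte hormone, had -1.77 and 3.46 in those comparisons, and the part of adipocyte RNA in these differences was not tested. Ppard, a nuclear receptor of fatty acid metabolism, differed by 0.45 at 4 weeks and by -0.19 at 10 weeks. Cpt1b, the muscle form of the carnitine transferase, differed by -0.41 at 4 weeks and with age by 1.06 in WT and 2.04 in Mkx-KO. Egln3, of the hypoxia list, was lower in Mkx-KO at 10 weeks by 1.12 on the log2 scale.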

How the data were processed

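Total RNA of PDL was labelled with Cy3 and hybridised to Agilent one-colour arrays, 1 per group, per the labels' protocols. The deposited scanner files hold the authors' processed spot intensity from Agilent Feature Extraction 11.5.1.1, per the submitters' processing notes, background-corrected by that software and not scaled between arrays. Here control and outlier spots were left out, spots of a probe averaged, and log2 intensity scaled to each array's 75th percentile. The brightest probe stood for a gene. Probes were named through RefSeq accessions, which matched 32994 of 56605 probes (58.3%). No spot was saturated (0 of 59305 on each array). The fit across arrays used limma 3.58.1 (lmFit, eBayes) in R 4.3.3 on genes well above background on 2 or more arrays, and p-values were adjusted by Benjamini-Hochberg. It was tested on simulated data. Tables were made with pandas 2.3.3 and numpy 2.4.6 under Python 3.11.15, and figures with matplotlib 3.10.9. The array design names genome build mm9.

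Alternatives were normexp correction of median signals (offset 50), quantile scaling, centring, the authors' deposited table, the mean over probes, other filters and fold thresholds of 1.5 and 3. Cyclic loess was added after seeing the data. Genes named in the text were those called, the isoforms, preset catalytic or core subunits, the extremes of each complex and partly detected members. Up to 3 genes of each list were named too. Further ligament fibroblast and sperm markers, and Actn3, were named after their values were seen. Lists hold well-known genes. The values of 1 member, counted in all totals, are not reported here. Members and lists were chosen with earlier results of these data known.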

Additional observations from a re-analysis of the deposited data

Results flagged for a closer look

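The genotype difference had opposite signs at the 2 ages for 3 muscle-type isoforms of complex IV. Taken at 4 weeks minus at 10 weeks, it changed by -1.71 for Cox6a2, -1.73 for Cox7a1 and -1.65 for Cox8b. The difference between ages was not tested, since each group had 1 array.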

How the results depend on the processing

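No paired analysis was possible because each group had 1 array and the labels give no replicate numbers. No difference called at 2-fold changed sign under an alternative, and of 126 alternative values of the main results 113 kept their reading. Of 876 alternative values of single members and lists 89 moved, and members short of 2-fold changed sign under cyclic loess, 18 with age in WT and 30 in Mkx-KO. The median age difference of the members in WT was -0.15 with quantile scaling and -0.077 with cyclic loess, and in Mkx-KO -0.12 and -0.021. The median of the muscle-type isoforms with age in Mkx-KO was 2.55 with cyclic loess. With a threshold of 1.5-fold the members called numbered 1 between genotypes at 10 weeks, 19 with age in WT and 12 with age in Mkx-KO, and with 3-fold 1 between genotypes at 4 weeks. Without tissue-type isoforms 0 members were called between genotypes at 4 weeks and 0 with age in Mkx-KO. With no filter on dim probes 1 was called with age in WT. The shares of all genes called at these other thresholds and filters are not given here. The counts therefore do not set the members apart. With normexp background correction limma called 31 genes for age, none of them a member. With 1 array a group, no difference has a replicate spread, and dim probes such as Cox7b2 and Cox8c give rough folds or no value.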
